A study of Homo sapiens with 6 samples.

Results

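The phase II conjugation enzymes described here are the UDP-glucuronosyltransferases (UGT), the cytosolic sulfotransferases (SULT), the cytosolic and mitochondrial glutathione S-transferases (GST) and the microsomal glutathione S-transferases (MGST). They were taken by name, as every row of the counts table whose name starts with UGT1, UGT2, UGT3, SULT, MGST, or GST followed by A, K, M, O, P, T or Z and a digit. The rule found 45 genes among 16720 named rows, and none of them starts with UGT3. Counts came from Hep3B, an established human hepatocellular carcinoma line, in 3 control libraries (sgControl, genotype labelled WT) and 3 libraries with RFX6 knocked out (sgRFX6), all from tumour cells without a further treatment named. The columns of the knockout libraries name a guide sg3, and the columns of the control libraries are named cas and name no guide. The knockout lines were made with a lentiviral CRISPR vector, puromycin selection and expansion of clones grown from single cells, so the knockout and the descent from a clone cannot be told apart. The study's statistical methods ask in general for independent repeats but no source used here says that these libraries came from separate cultures, so the p-values measure only the spread between these samples, which may be technical.

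Phase II enzymes attach a polar group to drugs, hormones, bilirubin and reactive metabolites, which makes them easier to excrete. UGTs transfer glucuronic acid from UDP-glucuronic acid, SULTs transfer sulfate from PAPS, and GSTs and MGSTs attach glutathione to electrophiles. Liver and intestine are the main sites of glucuronidation and sulfation, and much of the variety of these enzymes comes from gene clusters of close copies.

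The sgControl libraries held 117, 144 and 170 counts of RFX6, the targeted transcription factor, against 69, 59 and 77 in the sgRFX6 libraries. Every sgRFX6 library lay below every sgControl library, but the fold change of -0.82 on the log2 scale (SE 0.26) did not pass edgeR's quasi-likelihood test (adjusted p = 0.142). The study reports that it checked its RFX6 knockout cells by real-time PCR and western blotting. RNA counts do not measure the RFX6 protein. The libraries held between 16730374 and 25070770 counts. Library 3 of sgRFX6 stood apart, with deviations from its group mean that fell with the GC content of genes (Spearman's rho = -0.85 across 12213 tested genes), against 0.65 and 0.72 in libraries 1 and 2. In sgControl the same measure was -0.56, 0.41 and 0.05 in libraries 1, 2 and 3. All 12 hepatocyte markers examined were above 3 counts in some library, but ALB lay only between 12.9 and 32.1 CPM (counts scaled to library size) and TTR below 1 CPM in each library. AFP rose (log2 fold change 2.82, edgeR adjusted p = 0.00254), AHSG rose (1.68, adjusted p = 0.0119) and FGB fell (-2.45, adjusted p = 0.00417). All 3 were low, with AFP at 1.58 to 2.31 CPM in sgControl and 9.98 to 17.1 CPM in sgRFX6. AHSG stood at 1.78 to 1.90 CPM in sgControl and at 5.04 to 6.72 CPM in sgRFX6. For FGB the values were 22.3 to 34.4 CPM and 3.39 to 6.45 CPM. The summed hepatocyte markers ranged from 335 to 399 CPM in sgControl and from 273 to 293 CPM in sgRFX6, but single markers went both ways. APOB, APOH and HNF4A had log2 fold changes of -1.29, -0.38 and -0.27 (edgeR adjusted p from 0.116 to 0.494). Those of ALB, APOA1, APOA2, TTR, SERPINA1 and TF lay between 0.12 and 1.37 (edgeR adjusted p from 0.0615 to 0.928). The 4 intestinal epithelial markers with a row, CDX2, CDH17, VIL1 and LGALS4, summed to between 1024 and 1945 CPM in sgControl and between 1319 and 1636 CPM in sgRFX6, with adjusted p from 0.142 to 0.944. Of 6 fibroblast markers, COL1A1, COL1A2 and PDGFRA fell, and the sums were 27.5 to 34.4 CPM in sgControl and 21.4 to 56.2 CPM in sgRFX6. Most of these sums came from LUM, at 16.7 to 24.9 CPM in sgControl and 19.5 to 54.7 CPM in sgRFX6. Its log2 fold change was 0.63 (edgeR adjusted p = 0.530). The sums were 11.6 to 13.5 CPM and 13.3 to 19.6 CPM for endothelial markers, with KDR at or below 3 counts in every library, and 73.9 to 160.3 CPM and 65.1 to 102.9 CPM for leukocyte markers, with CD3E at or below 3 counts. Single genes made up most of both. PECAM1 held 11.4 to 12.9 CPM in sgControl and 13.2 to 19.3 CPM in sgRFX6, and CD68 held 72.1 to 156 CPM and 61.0 to 99.1 CPM. The part of these markers in the results below was not tested, and in bulk RNA fewer cells of a type cannot be told apart from less RNA per cell.

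Of the 45 genes, 36 had enough counts to be tested, and 4 of them changed: SULT1C4, UGT1A1 and SULT1C2 rose in sgRFX6 and GSTA4 fell. That is 11.1% of those tested, against 3.74% of all 12839 tested genes. By direction, 3 rose, where 1.92% of all tested genes rose, and 1 fell, where 1.81% of all tested genes fell. The groups did not overlap for 14 of the 36 genes (38.9%), against 23.1% of all tested genes, with sgRFX6 higher in 10 and lower in 4. Their median log2 fold change was 0.31, against 0.02 for all tested genes, with 23 above and 13 below 0. The plot of fold changes by family shows these values.

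**Figure D1:**
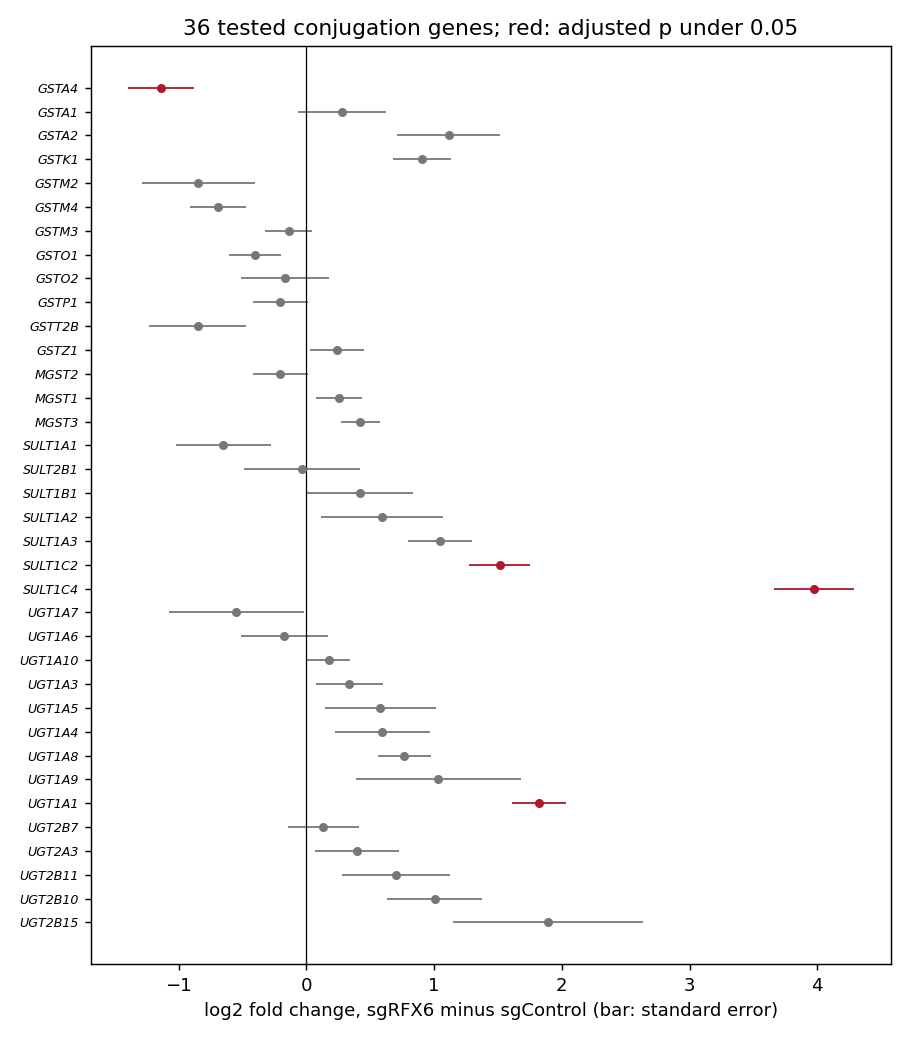
Log2 fold change of sgRFX6 over sgControl for the 36 tested conjugation genes, ordered by family, with the standard error as a bar and genes with an adjusted p under 0.05 in red. SULT1C4 at 3.97 lies apart from all others, and GSTA4 at -1.14 is the 1 gene in red below 0.

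The promoter windows of the 4 genes that changed are shown because their transcripts differed between the groups. They were read from RefSeq on GRCh38.p14, 5′ to 3′ on the strand of the gene, from 250 bases before the start to 50 bases after it, and for UGT1A1 only the first 200 bases of the window. Capitals mark matches, on either strand, to GCGTG (the core of the xenobiotic response element), TGANNNNGC (the core of the antioxidant response element), GTTAAT (an HNF1 half-site), GTTGCC (part of the RFX X-box) or TTTATN (CDX-like, whose reverse form can be part of a TATA box).
SULT1C4, chr2:108377704-108378003, plus strand: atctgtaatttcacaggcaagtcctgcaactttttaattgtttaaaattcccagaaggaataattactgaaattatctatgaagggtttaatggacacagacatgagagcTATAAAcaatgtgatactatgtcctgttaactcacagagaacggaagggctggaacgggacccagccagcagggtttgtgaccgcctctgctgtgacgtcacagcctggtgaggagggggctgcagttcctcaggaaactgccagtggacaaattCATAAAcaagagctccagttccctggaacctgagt
SULT1C2, chr2:108288645-108288944, plus strand: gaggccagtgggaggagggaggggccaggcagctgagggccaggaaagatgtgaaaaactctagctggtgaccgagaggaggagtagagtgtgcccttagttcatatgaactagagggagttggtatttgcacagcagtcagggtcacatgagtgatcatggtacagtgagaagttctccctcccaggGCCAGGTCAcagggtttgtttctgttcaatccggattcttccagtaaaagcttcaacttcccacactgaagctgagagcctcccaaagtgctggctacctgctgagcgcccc
UGT1A1, chr2:233760020-233760219, plus strand: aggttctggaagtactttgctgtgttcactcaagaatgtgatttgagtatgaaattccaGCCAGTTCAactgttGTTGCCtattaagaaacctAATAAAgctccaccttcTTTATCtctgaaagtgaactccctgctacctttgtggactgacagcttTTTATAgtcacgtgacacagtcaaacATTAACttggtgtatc
GSTA4, chr6:52995235-52995534, minus strand: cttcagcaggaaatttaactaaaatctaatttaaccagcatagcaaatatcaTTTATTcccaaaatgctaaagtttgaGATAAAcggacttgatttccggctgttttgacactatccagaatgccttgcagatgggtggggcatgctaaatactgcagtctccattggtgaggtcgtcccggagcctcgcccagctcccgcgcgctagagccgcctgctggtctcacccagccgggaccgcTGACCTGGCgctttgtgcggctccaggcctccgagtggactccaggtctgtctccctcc

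None of the 4 windows held GCGTG, and only UGT1A1 held GTTAAT and GTTGCC. Some genes have further start sites, and the shares here use the first window listed for each gene. Among the 31 tested conjugation genes with a RefSeq window, GTTAAT was found in 6 (19.4%), GTTGCC in 4 (12.9%), GCGTG in 11 (35.5%), TGANNNNGC in 13 (41.9%) and TTTATN in 15 (48.4%). Of the first windows of all 27305 genes, 6.89%, 12.2%, 36.3%, 42.1% and 35.8% held them, in that order. A match describes letters in the window and shows no binding.

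The sulfotransferases held the largest change. SULT1C4, a cytosolic sulfotransferase known mainly from fetal tissues, held 28, 54 and 45 counts in the sgControl libraries and 677, 332 and 706 counts in the sgRFX6 libraries. These are 1.35, 2.19 and 1.94 CPM against 33.6, 20.9 and 32.1 CPM. The groups did not overlap, and the lowest sgRFX6 library lay far above the highest sgControl library. SULT1C4 rose 15.7-fold (log2 fold change 3.97, SE 0.32, adjusted p = 0.000718), and passed the test in all 13 alternative analyses (adjusted p from 2.67e-31 to 0.00689).

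SULT1C2, its neighbour in the cluster on chromosome 2 and a sulfotransferase of phenolic compounds, stood at 24.8, 34.6 and 21.3 CPM in sgControl and at 69.6, 68.2 and 92.5 CPM in sgRFX6. All sgRFX6 libraries were higher, with library 3 the highest. It rose 2.85-fold (log2 fold change 1.51, SE 0.24, adjusted p = 0.0104), and passed in 12 of 13 alternatives. It did not pass without sgControl replicate 3, where the log2 fold change was 1.40 and the adjusted p = 0.0617. The third gene of the cluster, SULT1C3, held at most 1 count in any library and was not tested. The 3 other tested genes within 600 kb of the cluster were GCC2, LIMS1 and RANBP2. Their log2 fold changes were 0.96 (SE 0.70), 0.15 (SE 0.25) and 0.40 (SE 0.69), with edgeR adjusted p from 0.589 to 0.867. The standard errors of GCC2 and RANBP2 are too wide to say whether these genes changed. The median log2 fold change of the 50 tested genes nearest to SULT1C4 was 0.09. No stretch of 50 bases in the coding transcripts of SULT1C2 or SULT1C4 was shared with another annotated gene of the UGT, SULT, GST and MGST families. Genes outside these families were not compared.

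SULT1A3, which sulfates dopamine and other catecholamines, stood at 27.4, 29.1 and 37.2 CPM in sgControl and at 73.0, 75.6 and 44.4 CPM in sgRFX6. The groups did not overlap, with sgRFX6 library 3 nearest to the controls. Its log2 fold change was 1.04 (SE 0.25, adjusted p = 0.0600), and it passed in 7 of 13 alternatives. Without sgRFX6 replicate 3 it was 1.26 (adjusted p = 0.00971), and without any other 1 library it did not pass (adjusted p from 0.0991 to 0.219). Of its 50-base windows, 95.9% were shared with another gene, mostly the near-identical copy SULT1A4, so its counts are uncertain. The median log2 fold change of the 50 tested genes nearest to SULT1A3 was 0.34, above the 0.02 of all tested genes. SULT1A1, the main phenol sulfotransferase of adult liver, ranged from 12.96 to 29.02 CPM in sgControl and from 8.31 to 14.8 CPM in sgRFX6 (log2 fold change -0.65, SE 0.37, adjusted p = 0.466). SULT1B1, a sulfotransferase of thyroid hormones and phenols, stood at 19.2 to 23.0 CPM in sgControl, and in sgRFX6 at 19.0 and 15.8 CPM in libraries 1 and 2 but at 51.0 CPM in library 3. Its log2 fold change of 0.42 turned to -0.30 without that library. SULT1A2 and SULT2B1 lay below 3 CPM. SULT1E1 and SULT2A1, the estrogen and the bile acid and steroid sulfotransferases of adult liver, held at most 2 counts in any library and were not tested.

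Summed over the family, the SULT genes held 102 ± 15.1 CPM (SD, n = 3) in sgControl and 213 ± 16.7 CPM (n = 3) in sgRFX6, a ratio of 2.09 that was not tested. By the same sums the ratio was 1.26 for UGT1, 1.31 for UGT2, 1.199 for MGST, 1.87 for GSTK and 1.18 for GSTZ, and it lay below 1 for GSTA (0.657), GSTM (0.815), GSTO (0.776), GSTP (0.868) and GSTT (0.556). Over all 45 genes it was 1.18. The sums of single libraries overlapped between the groups for UGT1, UGT2, MGST, GSTZ, GSTP, GSTT and all 45 genes. They did not overlap for SULT, GSTK, GSTA, GSTM and GSTO, with the GSTM sums nearly touching. None of these ratios was tested. In sgRFX6 libraries 1, 2 and 3 the UGT2 sums were 52.7, 41.1 and 90.1 CPM, against a sgControl mean of 46.9 CPM. The GSTP sums were 291, 321 and 188 CPM, against a sgControl mean of 307 CPM. In both families library 3 thus lay apart from libraries 1 and 2. The plot of CPM by library shows the SULT genes beside the other families.

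**Figure D2:**
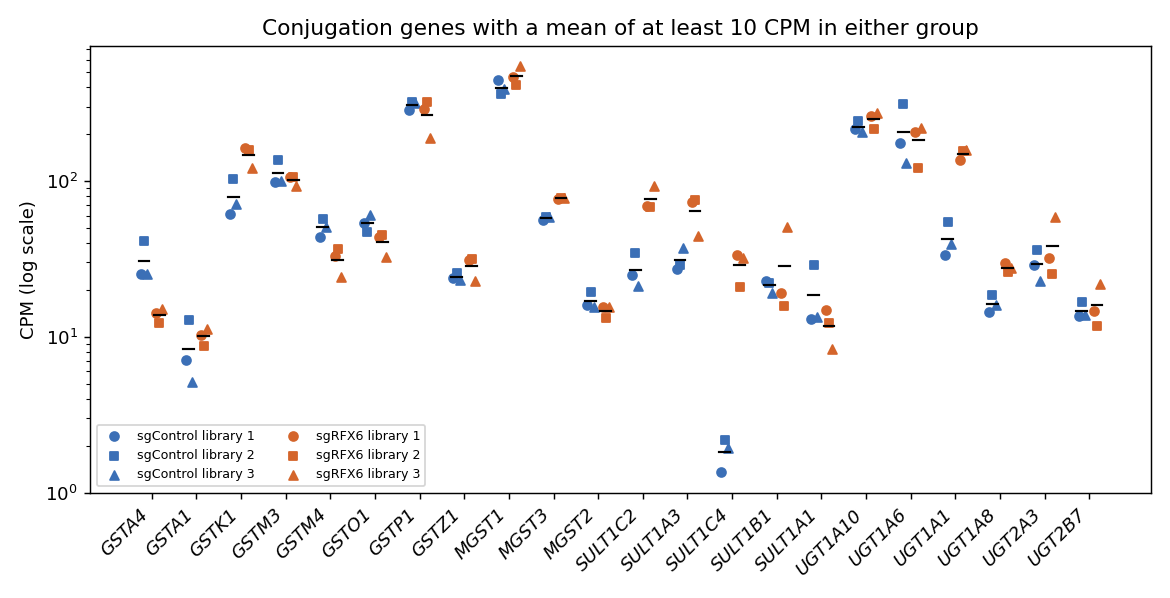
CPM on a log axis for the 22 conjugation genes with a mean of at least 10 CPM in either group, 1 point per library, with the group mean as a black line. SULT1C4 is near 2 CPM in sgControl and between 20.9 and 33.6 CPM in sgRFX6, and most other genes overlap between groups or differ by less than 2-fold.

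Glucuronidation genes of the UGT1 family come from a single locus on chromosome 2, in which each gene has its own first exon and all share the later exons. In GENCODE release 29 on GRCh38, the first coding-transcript exon of UGT1A1 lies at chr2:233760288-233761151 and the common second exon at chr2:233767034-233767165, in transcripts of 5 exons. The junctions of the most abundant members are shown because in these transcripts the first exon is the part that differs between the genes. Lower case marks the last 30 bases of each gene's own first exon, and capitals mark the first 30 bases of the common second exon.
UGT1A1: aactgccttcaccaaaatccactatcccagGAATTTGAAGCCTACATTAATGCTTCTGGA
UGT1A6: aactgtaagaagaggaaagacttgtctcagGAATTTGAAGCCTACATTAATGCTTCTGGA
UGT1A8: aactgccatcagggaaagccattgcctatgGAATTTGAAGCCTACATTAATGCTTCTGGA
UGT1A10: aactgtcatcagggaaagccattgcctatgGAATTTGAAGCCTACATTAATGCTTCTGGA

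Between 40.6% and 80.03% of the exonic bases of each UGT1A gene also belonged to another UGT1A gene. How the authors' counting placed reads on the shared exons is not given in the sources used here, so the split of counts among UGT1A genes is uncertain.

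UGT1A1, the enzyme that glucuronidates bilirubin, stood at 33.6, 54.3 and 39.3 CPM in sgControl and at 135, 156 and 158 CPM in sgRFX6. All sgRFX6 libraries were higher than all sgControl libraries. It rose 3.54-fold (log2 fold change 1.82, SE 0.21, adjusted p = 0.00288), and passed in all 13 alternatives (log2 fold changes from 1.68 to 2.04, adjusted p from 8.76e-11 to 0.0233). UGT1A1 took 7.45%, 8.48% and 9.83% of the UGT1A counts in sgControl and 21.0%, 29.4% and 22.6% in sgRFX6.

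UGT1A10, a UGT of the intestine and the most abundant of the locus in CPM, stood at 217, 241 and 205 CPM in sgControl and at 259.7, 214 and 274 CPM in sgRFX6. The groups overlapped (log2 fold change 0.18, SE 0.17, adjusted p = 0.712). UGT1A6, which glucuronidates small phenols, stood at 176, 309.9 and 129 CPM in sgControl and at 205, 121 and 220.1 CPM in sgRFX6, with sgControl library 2 the highest of all (log2 fold change -0.17, SE 0.34, adjusted p = 0.888). UGT1A8, also an intestinal UGT, stood at 14.5, 18.6 and 15.9 CPM in sgControl and at 29.9, 25.9 and 27.6 CPM in sgRFX6. Its groups did not overlap, and its log2 fold change of 0.77 (SE 0.21) did not pass the test (adjusted p = 0.0902). The other 5 members, UGT1A3, UGT1A4, UGT1A5, UGT1A7 and UGT1A9, had group means between 0.440 and 9.39 CPM, and log2 fold changes from -0.55 to 1.03, none of which passed. Without sgRFX6 replicate 3 the highest of these, UGT1A9, moved from 1.03 to 0.11, and the lowest, UGT1A7, from -0.55 to -1.24.

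**Figure D3:**
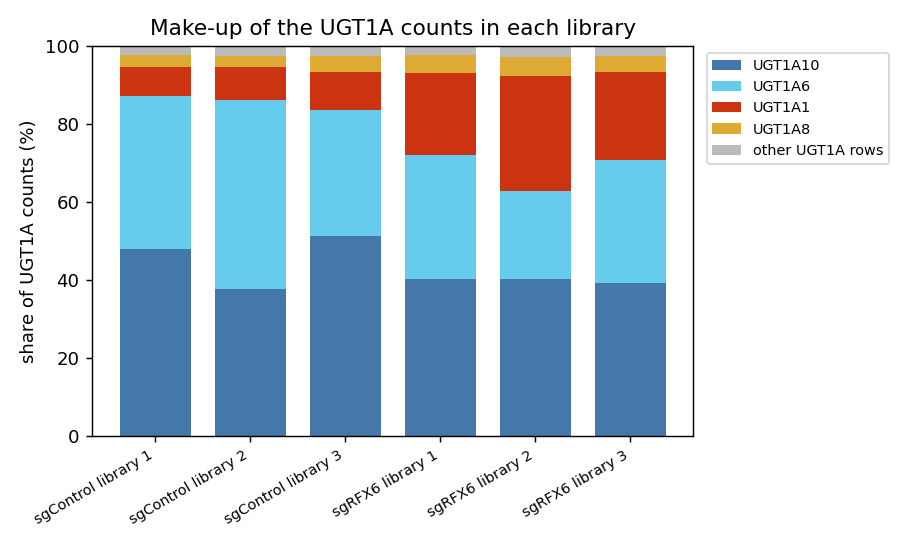
Share of the counts on all 9 UGT1A genes taken by each gene, as stacked bars in percent, 1 bar per library. The UGT1A1 share was 7.45% to 9.83% in sgControl and 21.0% to 29.4% in sgRFX6, while UGT1A10 and UGT1A6 took most of the rest in every library.

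Outside the UGT1A genes, 4 tested genes lay within 600 kb of the locus (ATG16L1, DGKD, USP40 and HJURP), with log2 fold changes from -0.41 to 0.06 and adjusted p from 0.363 to 0.944. The median log2 fold change of the 50 tested genes nearest to UGT1A1 was -0.07. The plot of fold change against distance shows both clusters.

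**Figure D4:**
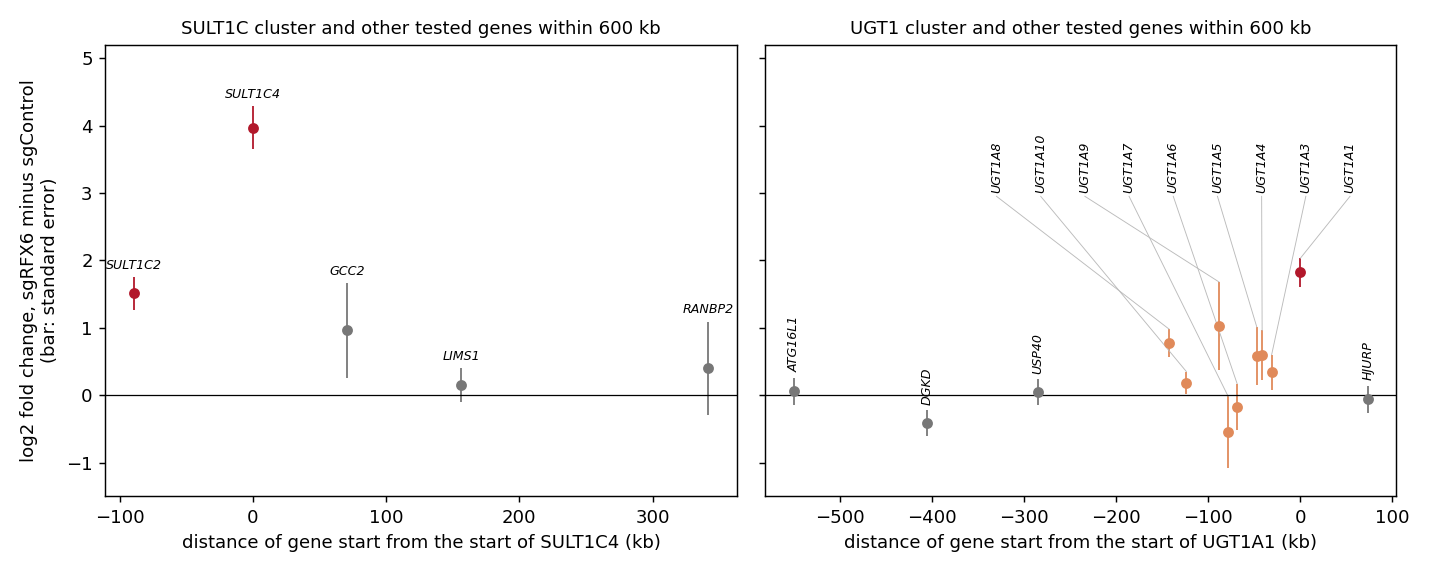
Log2 fold change of sgRFX6 over sgControl, with the standard error as a bar, against the distance in kb of each tested gene's start from SULT1C4 (left) and UGT1A1 (right), with called genes in red, other cluster members in orange and other genes in grey. The SULT1C genes and UGT1A1 stand above 1.5, and the grey genes lie between -0.41 and 0.96.

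The UGT2 family on chromosome 4, which glucuronidates steroids, bile acids and many drugs, held 8 rows, of which 5 were tested. None passed edgeR's test, and 2 of the 5 (UGT2B10 and UGT2B15) had an unadjusted p under 0.05, as did 15.6% of all tested genes. These 2 passed with limma-voom, where 31.1% of all tested genes passed, but not with DESeq2. Of their 50-base windows, 30.9% for UGT2B10 and 27.5% for UGT2B15 were shared with another gene, so their counts are uncertain. UGT2A3, the most abundant, stood at 28.9, 36.1 and 22.8 CPM in sgControl and at 31.9, 25.2 and 58.4 CPM in sgRFX6. Only sgRFX6 library 3 lay above all sgControl libraries, and the log2 fold change of 0.40 (SE 0.33, adjusted p = 0.654) turned to -0.03 without it. UGT2B7, the UGT of morphine and many other drugs, ranged from 13.5 to 16.8 CPM and from 11.7 to 22.0 CPM (log2 fold change 0.13, SE 0.28, adjusted p = 0.898). UGT2B10, UGT2B11 and UGT2B15 lay below 5 CPM in each library, with log2 fold changes from 0.70 to 1.89 and adjusted p from 0.225 to 0.497. The highest value, 1.89 for UGT2B15, was 2.99 without sgControl replicate 2 and lay between 1.40 and 2.24 without any other 1 library. All 5 tested UGT2 genes were highest of the sgRFX6 libraries in library 3, and their transcripts hold 35.6% to 39.4% GC. UGT2A1, UGT2B17 and UGT2B4, the last of these an abundant UGT of adult liver, held at most 13 counts in a library and were not tested.

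Among all 36 tested genes, sgRFX6 library 3 was the highest of its group for 16 of the 18 genes at or below 45% GC, and the lowest for 13 of the 18 genes above it. With the GC trend of each library removed, SULT1C4, UGT1A1 and SULT1C2 rose, with log2 fold changes of 3.93, 1.80 and 1.49 (edgeR adjusted p = 0.000173, 0.000902 and 0.00245). In sgControl, library 2 was the highest of its group for 28 of the 36 genes, GSTA4 among them. The same count was not made over all tested genes, so it cannot be read as a trait of these genes.

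**Figure D5:**
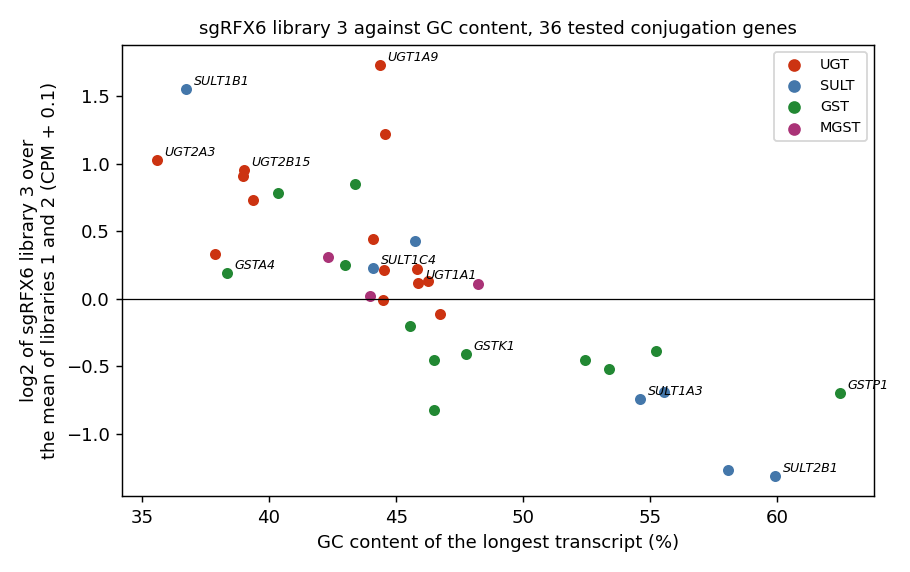
Log2 ratio of sgRFX6 library 3 to the mean of sgRFX6 libraries 1 and 2 (CPM + 0.1) against the GC content of the longest transcript, in percent, for the 36 tested conjugation genes coloured by family. Genes of low GC such as SULT1B1 (1.55) and UGT2A3 (1.03) lie above 0, genes of high GC such as GSTP1 (-0.70) below it, and SULT1C4 (0.23) and UGT1A1 (0.12) near it.

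Of the glutathione S-transferases, 15 rows in 7 classes, 12 were tested, 1 fell and 0 rose. That is 8.33% of those tested, against 3.74% of all tested genes in either direction and 1.81% that fell. It rests on 1 gene, so it describes that gene and not the family. GSTA4, which conjugates 4-hydroxynonenal and other products of lipid peroxidation, stood at 25.4, 41.0 and 25.2 CPM in sgControl and at 14.2, 12.2 and 15.1 CPM in sgRFX6. All sgRFX6 libraries were lower. It fell by 1.14 on the log2 scale (SE 0.26, adjusted p = 0.0473), close to the threshold, and passed in 5 of 13 alternatives (adjusted p from 0.000848 to 0.164). It did not pass with RLE scaling, with a stricter filter, with the GC trend removed, or without any 1 library other than sgRFX6 replicate 3. The 9 tested genes within 600 kb of the GSTA cluster that are not GST genes had log2 fold changes from -0.75 to 0.39 (adjusted p from 0.245 to 0.984).

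Its neighbours of the alpha class, GSTA1 and GSTA2, which carry most GST activity in adult hepatocytes, had log2 fold changes of 0.28 (adjusted p = 0.799) and 1.11 (adjusted p = 0.211). GSTA1 ranged from 5.14 to 12.8 CPM in sgControl and from 8.73 to 11.3 CPM in sgRFX6, and GSTA2 from 0.820 to 1.62 CPM and from 1.76 to 3.63 CPM. The groups of GSTA2 did not overlap. GSTA3 held at most 31 counts and was not tested.

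GSTK1, the mitochondrial and peroxisomal kappa class, stood at 61.4, 103 and 71.1 CPM in sgControl and at 162, 158 and 120.2 CPM in sgRFX6. All sgRFX6 libraries were higher, but the log2 fold change of 0.90 (SE 0.23) did not pass the test (adjusted p = 0.0734). Among the 50 tested genes nearest to it, on chromosome 7, the median log2 fold change was 0.35, above the 0.02 of all tested genes. It passed in 6 of 13 alternatives, among them without sgRFX6 replicate 3 (1.03, adjusted p = 0.0400).

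GSTP1, the pi class GST that is abundant in many carcinoma lines and scarce in normal hepatocytes, stood at 284, 319 and 318 CPM in sgControl and at 291, 321 and 188 CPM in sgRFX6. Only sgRFX6 library 3 lay below the controls (log2 fold change -0.20, SE 0.22, adjusted p = 0.748). GSTM3, the most abundant of the mu class, stood at 98.9, 136 and 100.4 CPM in sgControl and at 106, 106 and 92.3 CPM in sgRFX6 (log2 fold change -0.14, SE 0.18, adjusted p = 0.812). GSTM4 stood at 43.8, 57.1 and 51.0 CPM in sgControl and at 33.0, 36.7 and 24.2 CPM in sgRFX6. Its groups did not overlap, and the log2 fold change of -0.69 (SE 0.22) did not pass the test (adjusted p = 0.149).

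GSTO1, the omega class enzyme that also reduces dehydroascorbate, stood at 53.7, 46.8 and 60.1 CPM in sgControl and at 43.7, 45.2 and 32.5 CPM in sgRFX6 (log2 fold change -0.41, SE 0.20, adjusted p = 0.401). Its groups did not overlap, though their nearest libraries lay close. GSTZ1, an enzyme of tyrosine breakdown, stood at 23.7, 25.5 and 23.3 CPM in sgControl and at 31.2, 31.4 and 22.9 CPM in sgRFX6 (log2 fold change 0.24, adjusted p = 0.685). GSTT2B, of the theta class, stood at 3.998, 9.47 and 5.22 CPM in sgControl and at 3.08, 4.46 and 2.86 CPM in sgRFX6 (log2 fold change -0.85, adjusted p = 0.324), and 90.9% of its 50-base windows were shared with the copy GSTT2. GSTM2 and GSTO2 lay between 0.844 and 13.6 CPM and did not pass, and GSTM1 and GSTM5 held at most 6 counts in a library and were not tested.

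The microsomal enzymes, which belong to the MAPEG family of membrane proteins, were all tested. None passed edgeR's test, and MGST3 alone had an unadjusted p under 0.05, as did 15.6% of all tested genes. It passed with limma-voom, where 31.1% of all tested genes passed, but not with DESeq2. MGST1, which protects membranes from lipid peroxides, stood at 442, 363 and 387 CPM in sgControl and at 466, 412 and 544 CPM in sgRFX6 (log2 fold change 0.25, SE 0.18, adjusted p = 0.570). MGST3 stood at 56.1, 58.7 and 58.9 CPM in sgControl and at 76.8, 77.2 and 78.2 CPM in sgRFX6. The spread within each group was small and the groups did not overlap, but the log2 fold change of 0.42 (SE 0.15) did not pass (adjusted p = 0.212). MGST2 stood at 16.0, 19.3 and 15.6 CPM in sgControl and at 15.5, 13.2 and 15.5 CPM in sgRFX6 (log2 fold change -0.20, SE 0.22, adjusted p = 0.746).

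Compared per kb of median coding transcript length in sgControl, MGST1 (549 CPM per kb) and GSTP1 (426 CPM per kb) had the highest levels, followed by UGT1A6 (215 CPM per kb) and UGT1A10 (98.7 CPM per kb). The same 4 genes led per kb of the longest coding transcript, but the order within each pair turned, with 319 for GSTP1, 299 for MGST1, 91.7 for UGT1A10 and 82.8 CPM per kb for UGT1A6, so these data do not order the genes of a pair. Per kb of median length, SULT1C4 stood at 1.26 CPM per kb in sgControl and at 19.9 CPM per kb in sgRFX6, and UGT1A1 at 14.7 and 52.0 CPM per kb. Of the 9 genes not tested, 5 held at most 3 counts in every library, which is the floor used here and lies between 0.121 and 0.188 CPM. Such a floor covers counting error only.

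Genes that supply, remove, export or control the products of these enzymes were read from lists of 101 genes with a row, of which 85 were tested. In these lists 3 genes passed (3.53%, against 3.74% of all tested genes), and all 3 rose. ABCC1, an exporter of glutathione conjugates, stood at 169, 151 and 186 CPM in sgControl and at 370.4, 380.0 and 289 CPM in sgRFX6 (log2 fold change 1.04, SE 0.18, adjusted p = 0.0146). ABCG2, an exporter of sulfate conjugates, stood at 49.9, 35.5 and 45.4 CPM in sgControl and at 88.7, 79.9 and 136 CPM in sgRFX6 (log2 fold change 1.22, SE 0.24, adjusted p = 0.0283). NR1H4, the bile acid receptor FXR, gave 4, 5 and 3 counts per sgControl library against 22, 12 and 22 per sgRFX6 library (log2 fold change 2.41, SE 0.44, adjusted p = 0.0203). The groups did not overlap for any of these 3 genes, nor for 23.1% of all tested genes. Since the 3 were picked by their p, this is no separate support. Each of the 3 genes failed to pass without sgControl replicate 1 and likewise without sgRFX6 replicate 1. ABCC1 also failed without sgControl replicate 2 and without sgRFX6 replicate 2. ABCG2 also failed without sgControl replicate 2 and without sgControl replicate 3, and NR1H4 without sgControl replicate 3. The adjusted p rose up to 0.0791 for ABCC1, 0.112 for ABCG2 and 0.105 for NR1H4 over all alternatives.

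None of the 6 tested genes of UDP-glucuronic acid supply, the 8 of sulfate and PAPS supply, the 13 of glutathione synthesis and turnover, the 15 other conjugation and hydrolysis enzymes and the 5 enzymes that remove conjugates passed edgeR's test, with 0, 2, 2, 3 and 0 of them at an unadjusted p under 0.05. That is 14.9% of these 47 genes, against 15.6% of all tested genes. With limma-voom, 30 of the 85 genes of all lists passed (31.1% of all tested genes did), and with DESeq2 9 (6.97% of all tested genes). UGDH, which makes UDP-glucuronic acid, ranged from 644 to 719 CPM in sgControl and from 461 to 780 CPM in sgRFX6 (log2 fold change -0.17, adjusted p = 0.809). The log2 fold change was 0.06 for the PAPS transporter SLC35B2 (adjusted p = 0.942) and -0.11 for glutathione reductase, GSR (adjusted p = 0.876). NQO1, a quinone reductase, stood at 2015, 2569 and 2143 CPM in sgControl and at 1930.1, 1911 and 1652 CPM in sgRFX6, with groups that did not overlap (log2 fold change -0.29, adjusted p = 0.532). The exporters ABCC2 and ABCC3 had log2 fold changes of -0.03 and 0.03 (adjusted p = 0.965 and 0.974).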

How the data were processed

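Total RNA of Hep3B cells was isolated with Trizol and sequenced as cDNA on an Illumina instrument. The authors deposited raw counts per gene for 3 sgControl and 3 sgRFX6 libraries. The submitters' processing notes name GRCh38, and the aligner, counter, annotation and strand are not given in the sources used here. The row without a name held at most 9.17e-05% of the counts and was left out. Counts of all named rows were fitted with edgeR 4.0.16 in R 4.3.3 (filterByExpr with a minimum count of 10, TMM factors, quasi-likelihood test, Benjamini-Hochberg adjustment, threshold 0.05). CPM used the TMM-scaled library sizes. Values in every library are given for genes that passed, for genes with a group mean of at least 10 CPM and no overlap, and for the most abundant of each family, and other genes by range, and of the pathway lists the genes that passed and up to 2 abundant ones per list. The members and lists were chosen with earlier results of these data known. Positions, lengths and GC came from GENCODE 29 (15422 of 16720 names matched, and 265 by another symbol), and windows from RefSeq for 38 of 45 genes. The fit was also run on simulated counts with a single dispersion for all genes. Those counts held no GC trend and no outlying library, so that run cannot show how the fit handles either. Alternatives were DESeq2 1.42.0, limma 3.58.1 (voom), RLE factors, other filters, a replicate block, removal of a GC trend, and each library left out.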

Additional observations from a re-analysis of the deposited data

How the results depend on the processing

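The number of conjugation genes that passed was 4 of 36 in the edgeR fit, where 3.74% of all tested genes passed. It was 7 with DESeq2 (6.97% of all), 17 with limma-voom and sample quality weights (31.1%), 7 with the GC trend removed (11.2%), 6 with the replicate block (5.05%) and 3 with RLE factors (3.77%). With other filters the number of genes tested also changed. Without a filter 5 of 45 passed (3.26% of all), and with the stricter filter 4 of 32 (3.69%). Leaving out 1 library gave 2 to 6, the lowest without sgControl replicate 3 (1.62% of all) and the highest without sgRFX6 replicate 3 (5.52%). In the same settings, pathway genes that passed numbered 3 of 85 in the edgeR fit, 9 with DESeq2, 30 with limma-voom, 14 with the GC trend removed and 6 with the replicate block, and 0 to 5 with 1 library left out. For RFX6 the log2 fold change lay between -0.89 and -0.67 with 1 library left out, and it passed with limma-voom (-0.96, adjusted p = 0.00274) and with the GC trend removed (-0.85, adjusted p = 0.0466). The replicate numbers did not pair the samples (correlations of same-numbered deviations -0.41, 0.17 and -0.09, with no library closest to its own number), and under the block GSTK1 and SULT1A3 also passed. Signs turned for 9 genes, none of which passed in the edgeR fit, and the cause was not tested. With limma-voom the log2 fold change was 0.05 for GSTM3, 0.37 for GSTO2, 0.01 for SULT1A1, -0.09 for SULT1B1, 0.47 for SULT2B1 and 0.32 for UGT1A6. With 1 library left out it lay between -0.22 and 0.02 for GSTM3, -0.37 and 0.17 for GSTO2, -0.37 and 0.00 for GSTP1, -0.30 and 0.70 for SULT1B1, -0.37 and 0.32 for SULT2B1, -0.39 and 0.25 for UGT1A6, -0.03 and 0.62 for UGT2A3, and -0.16 and 0.31 for UGT2B7. The stricter filter left out UGT1A5, UGT1A7, UGT1A9 and UGT2B11, which held few counts.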

Other observations

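Outside the named-gene rule, and chosen after their values were seen, 4 genes of the pathway lists lay nearest above the threshold, 2 of them higher and 2 lower in sgRFX6. SLCO1B3, a hepatocyte uptake transporter of conjugated bile acids and bilirubin, gave 5, 0 and 3 counts per sgControl library against 17, 15 and 29 per sgRFX6 library (edgeR adjusted p = 0.0530). The log2 fold change of ABCB1, the drug efflux pump, was 1.26 (SE 0.32, edgeR adjusted p = 0.0742). It was -1.30 (SE 0.31, edgeR adjusted p = 0.0573) for GGT5, which cleaves glutathione conjugates, and -1.08 (SE 0.26, edgeR adjusted p = 0.0622) for FOXA1, a liver-enriched transcription factor. The groups did not overlap for any of these 4 genes, nor for 23.1% of all tested genes. Since the 4 were picked by their p, this is no separate support.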
